A study of Rosa hybrid cultivar with 39 samples.

Results

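A set of 133 rose petal genes had a low average in the condition labelled AIR. Their average was higher in flowers held in air with 1-methylcyclopropene (1-MCP). The members were chosen by their averages in water (H2O), AIR and 1-MCP, among 30208 gene identifiers. Their expression was at least 1 FPKM in H2O, which 13094 genes reached, their log2 ratio of AIR over H2O was -1 or lower, and their log2 ratio of 1-MCP over AIR was 1 or higher. FPKM are fragment counts corrected for transcript length and library size, and every ratio is of FPKM plus 1, which understates the change of genes with low values. These 3 averages chose the genes, so their values in 1-MCP, AIR and H2O are given as a description.

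The petals were the outer petals of Rosa hybrida 'Samantha', a red hybrid tea rose grown for cut flowers, cut at stage 2 of opening and sampled after 24 h. The gas conditions were 2 µL/L of 1-MCP and regular air (AIR). Stems stood in solutions of 100 µM NAA or 100 µM 2,4-D, which are synthetic auxins, 5.0 µM of the brassinosteroid BR, 100 µM of the cytokinin 6-BA, 100 µM ABA, 80 µM gibberellic acid (GA), 50 µM JA, 100 µM SA or 80 µM AgNO3, or in deionized water (H2O). All 39 samples are of this cultivar, with 3 replicates per condition, each collected from several flowers, but each condition carries 1 deposited average. No spread between replicates, standard error or test can therefore be given, and no difference reported here is known to exceed the replicate error. The files hold no read counts, so the depth behind a value is unknown.

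Ethylene is a gaseous hormone perceived by a family of receptors in the membrane of the endoplasmic reticulum. The receptors repress the response while they are empty, and binding of ethylene releases the EIN3 class of transcription factors, which switch on some target genes and lead to the repression of others. 1-MCP occupies the ethylene binding site, and silver ions also make the receptors insensitive. In rose flowers, ethylene affects opening, petal expansion and senescence. The values deposited for ethylene (ET) are identical to those of AIR and carry its column name, so that flowers in regular air and flowers in ethylene cannot be told apart as the source of the AIR values. ET was not analysed here. The files name genes by identifiers that are not paired with descriptions. No role can be given to a member, the lists of pathway genes could not be applied, and petal markers could not be looked up. In RNA from whole petals, fewer cells of a type and less RNA per cell cannot be told apart.

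The members had a median of 22.2 FPKM in 1-MCP, 6.40 in AIR and 36.2 in H2O. The lowest member had 1.48 FPKM in H2O and the highest 26344. They were abundant genes, with 38 members, or 28.6%, at 100 FPKM or more in H2O, against 26.0% of the other 809 genes low in AIR and 10.9% of all genes of at least 1 FPKM there. At this limit the share of members was thus close to that of the other genes low in AIR. At a limit 10 times as high it was larger, with 9 members, or 6.77%. Of the other genes low in AIR 2.35% reached that higher limit, and of all genes 0.756%. The ratios of FPKM plus 1 keep most genes near 1 FPKM from reaching the limits, so part of this abundance follows from the rule. Together the members held 5.37% of the summed FPKM of all genes in 1-MCP, 2.27% in AIR and 6.84% in H2O. In the treatments in solution this share was lowest in ABA at 4.40% and highest in JA at 7.49%. A single gene, LOC112190728, made up 3.08% of all FPKM in 1-MCP, 1.28% in AIR and 2.94% in H2O. Without it the share of the other members was 2.29% in 1-MCP, 0.995% in AIR and 3.90% in H2O, and in solution it was still lowest in ABA at 2.88% but highest in 2,4-D at 3.93%, with 3.91% in BR and 3.88% in JA.

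Of the genes of at least 1 FPKM in H2O, 942 (7.19%) were at least 2-fold lower in AIR than in H2O, and 227 (1.73%) were at least 2-fold higher in 1-MCP than in AIR. The 133 members were 14.1% of the genes low in AIR and 58.6% of those higher in 1-MCP. Both comparisons use the AIR average, so an AIR value that is low by error alone would place a gene in both. AIR and H2O also differ in that flowers were held for gas treatment or stood in liquid. The form of holding cannot be told apart from an effect of the gas, be it air or ethylene. The median log2 ratio of the members was -1.76 for AIR over H2O, with a range of -6.24 to -1.03. For 1-MCP over AIR the median was 1.26, with a range of 1.00 to 2.82. Just inside the limit for AIR over H2O lay LOC112188621, with 0.318 FPKM in AIR and 1.69 in H2O. Just outside it lay LOC112173921, with 1.88 FPKM in AIR and 4.71 in H2O. Just inside the limit for 1-MCP over AIR lay LOC112170921, with 1.76 FPKM in 1-MCP and 0.378 in AIR, and just outside it lay LOC112172174, with 23.7 in 1-MCP and 11.4 in AIR. The members near the limits thus differ little from genes that were not taken.

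**Figure D1:**
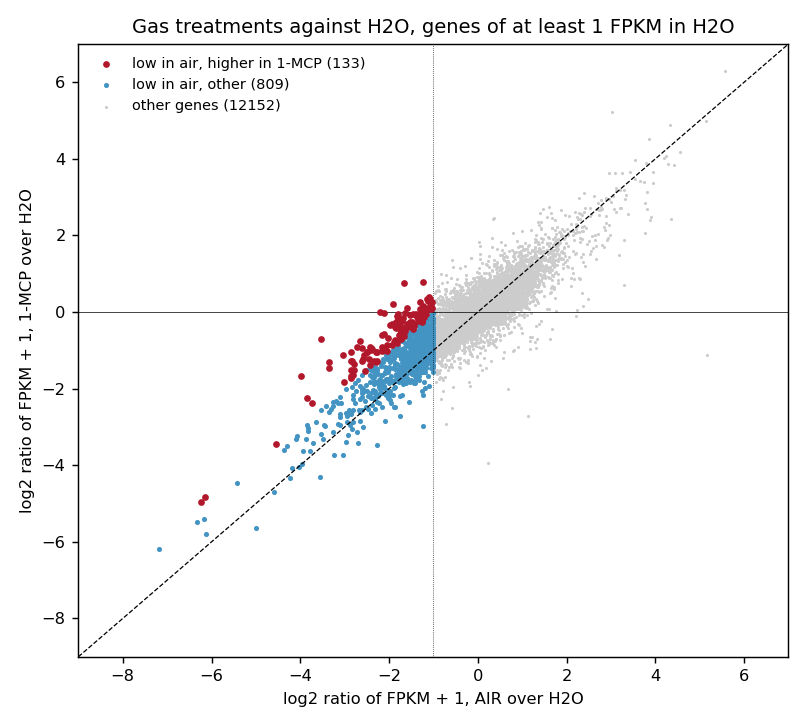
Each point is 1 of 13094 genes of at least 1 FPKM in H2O, with the log2 ratio of AIR over H2O on the x axis and of 1-MCP over H2O on the y axis, both of FPKM plus 1. The 133 members (red) lie left of the dotted line at -1 and above the dashed diagonal of equal averages in 1-MCP and AIR, most of them close to or under the line at 0, while the 809 other genes low in AIR (blue) lie nearer the diagonal.

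The average in 1-MCP came near that in H2O for most members but seldom passed it. In 1-MCP, 99 of 133 members were within 2-fold of H2O. The remaining 34 members, or 25.6%, were still at least 2-fold lower in 1-MCP than in H2O, and 0 were at least 2-fold higher. Of the other genes low in AIR 60.3% were lower, and of all genes 5.10% were lower and 5.17% higher. Nothing is read from these shares, since the rule used both averages. The median log2 ratio of 1-MCP over H2O was -0.42, and 1-MCP lay below H2O at 114 members. On the log2 scale the difference between 1-MCP and AIR was a median of 75.2% of that between H2O and AIR, from 20.5% to 164%. As a label, restored by 1-MCP covers 99 members within 2-fold of H2O and not the other 34, and it is not a result.

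Among the most abundant members the average in 1-MCP was close to that in H2O for some and well below it for others. LOC112190728, on NC_037089.1 from 2288893 to 2290536 of RchiOBHm-V2, was at 25257 FPKM in 1-MCP, 9533 in AIR and 26344 in H2O. In solution it was highest in JA at 32444 and lowest in ABA at 14583, so the AIR average lay under every other condition. LOC112181600, on NC_037088.1 from 48368583 to 48371248, was at 2397 FPKM in 1-MCP, 897 in AIR and 6187 in H2O. Its averages in solution lay between 2727 in AgNO3 and 4694 in ABA, all under that in H2O. The largest ratio of 1-MCP over AIR among members of at least 10 FPKM in H2O was that of LOC112189226, on NC_037089.1 from 63079177 to 63080479, with 74.4 FPKM in 1-MCP, 9.68 in AIR and 122 in H2O. It had 530 FPKM in BR, 389 in GA and 331 in JA, and 76.8 in ABA. The next, LOC112185661, on NC_037089.1 from 71371772 to 71373573, was at 22.2 FPKM in 1-MCP, 3.34 in AIR and 12.7 in H2O, and so passed the H2O average in 1-MCP. It also reached 49.9 FPKM in BR, while in ABA it was at 5.13.

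At the other end stood members whose average in 1-MCP lay far below that in H2O. LOC112169651, on NC_037093.1 from 68365140 to 68369396, was at 51.5 FPKM in 1-MCP, 20.3 in AIR and 1499 in H2O. In solution it ranged from 100 FPKM in BR and 247 in JA to 1052 in 2,4-D, so the average of every treatment in solution was above that in 1-MCP and below that in H2O. LOC112181743, on NC_037088.1 from 64919347 to 64922583, was at 6.86 FPKM in 1-MCP, 2.23 in AIR and 243 in H2O, with 12.05 in BR, 52.2 in JA and 224 in 2,4-D. LOC112196608, named here after its values were seen, was at 20.4 FPKM in 1-MCP, 8.88 in AIR and 231 in H2O, with 18.1 in BR and 50.8 in JA. These 3 genes had the lowest ratios of 1-MCP over H2O of all members, and BR was the lowest and JA the second lowest of the treatments in solution at each. LOC112169651 shares its deposited locus with another identifier, and how reads were divided between them was not examined.

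**Figure D2:**
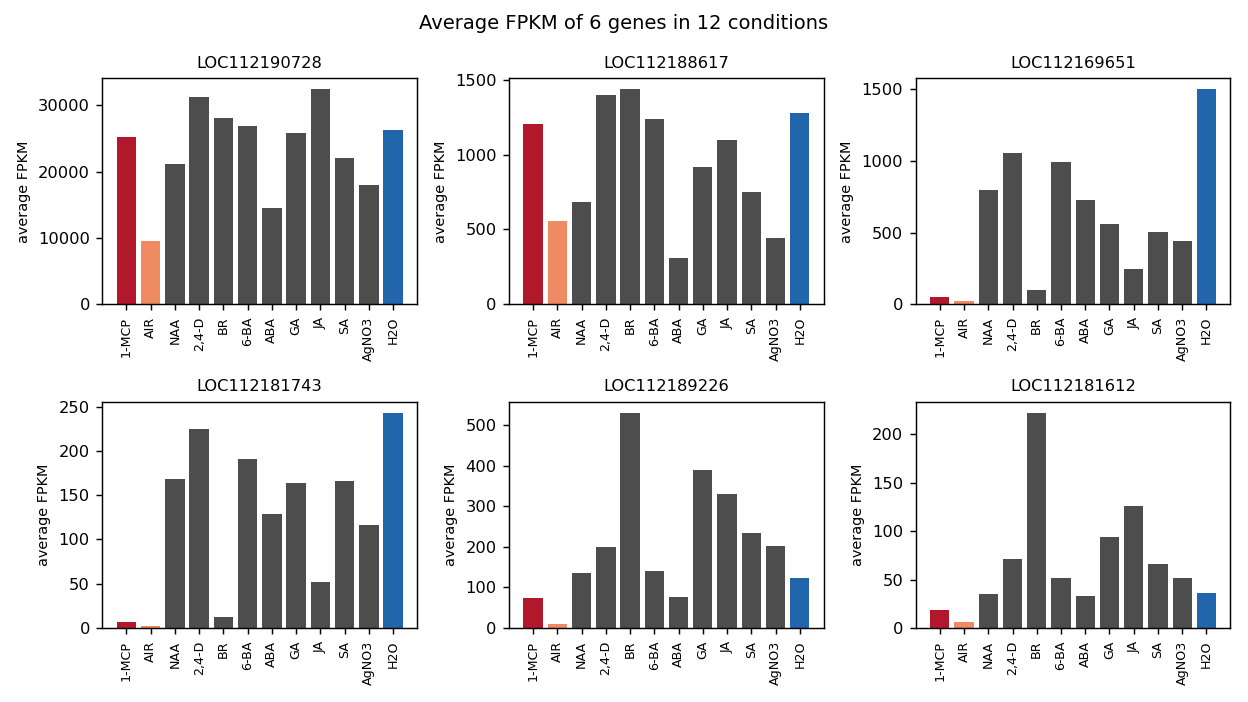
Each panel gives the average FPKM of 1 gene (y axis, linear, starting at 0) in 12 conditions, with 1-MCP in red, AIR in orange, the treatments in solution in grey and H2O in blue. LOC112190728 and LOC112188617 in 1-MCP are close to H2O, LOC112169651 and LOC112181743 are near 0 in the gas conditions and in BR, and LOC112189226 and LOC112181612 are highest in BR.

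The 9 treatments in solution play no part in the rule. At 112 of 133 members, or 84.2%, AIR lay below all 9 of them, against 78.2% of the other genes low in AIR and 20.8% of all genes. At 64, or 48.1%, it was at least 2-fold below the lowest, against 30.8% and 2.47%. The AIR average is itself part of the rule, so these counts only show that the members were low in AIR against more conditions than H2O. The average in 1-MCP lay within the range of the 9 treatments at 83 members, below it at 47 and above it at 3. For all genes the shares within, below and above were 65.2%, 17.7% and 17.1%, and for the other genes low in AIR 34.7%, 65.3% and 0%. The 1-MCP average is also part of the rule, and the other genes low in AIR did not meet the limit for 1-MCP over AIR. Nothing is read from these shares within, below and above. Over the 9 treatments alone, 108 members, or 81.2%, differed by at least 2-fold between their highest and lowest average, against 69.7% of the other genes low in AIR and 37.6% of all genes. The median log2 range was 1.60 for members, 1.26 for the 809 other genes low in AIR and 0.82 for all genes. Some members varied little. LOC112178680, named after its values were seen, lay between 45.8 and 66.1 FPKM in the 9 treatments, with 30.8 in 1-MCP, 10.6 in AIR and 64.7 in H2O. The widest range among members of at least 10 FPKM in H2O was that of LOC112181891, on NC_037088.1 from 50782922 to 50784285, with 0.705 FPKM in BR and 30.0 in ABA. LOC112201476, on NC_037092.1 from 30169156 to 30170668, followed with 1.44 FPKM in BR and 42.3 in ABA. In H2O these genes had 12.5 and 35.2 FPKM.

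**Figure D3:**
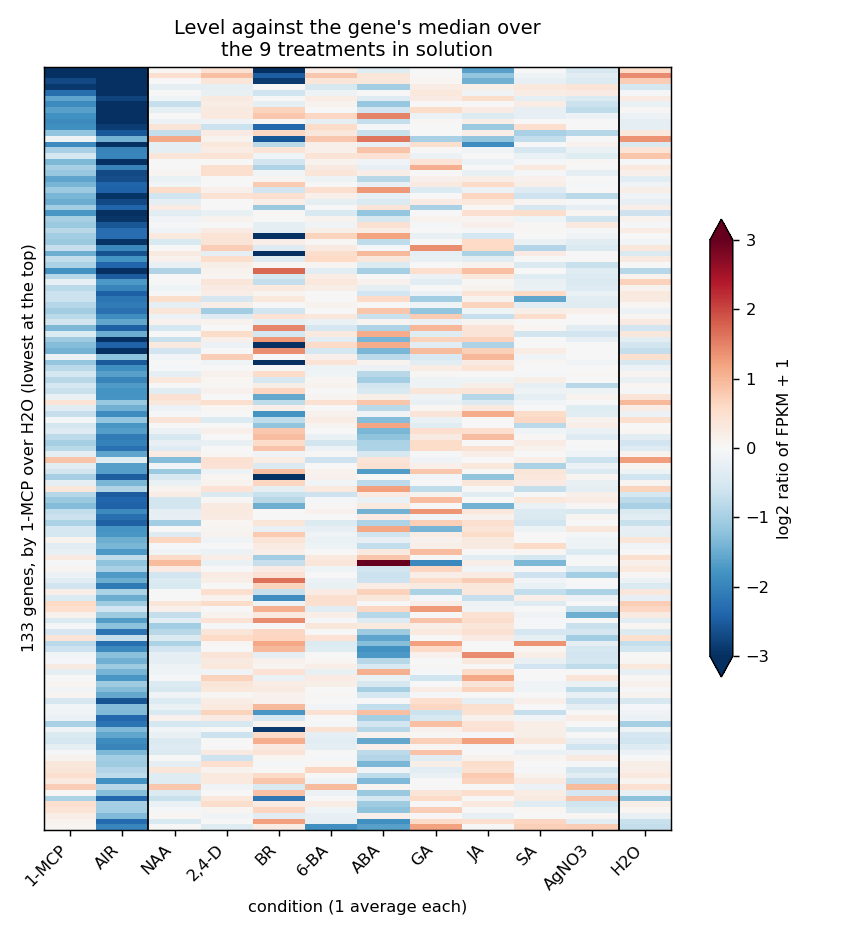
Rows are the 133 members, ordered by 1-MCP over H2O with the lowest at the top, and columns are the 12 conditions. Colour is the log2 ratio of FPKM plus 1 to the gene's median over the 9 treatments in solution, from blue (3 or more lower) to red (3 or more higher), and the AIR column is blue throughout most rows while the ABA and BR columns hold both colours.

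The members' lowest average in solution was most often in ABA. ABA was the lowest of the 9 treatments at 56 members, or 42.1%, against 25.5% of all genes and 16.8% of the other genes low in AIR. It was the highest at 26 members, or 19.5%, against 28.3% of all genes and 37.7% of the other genes low in AIR. BR was the lowest at 35 members, or 26.3%, against 17.8% of all genes, and the highest at 31, or 23.3%, against 20.4%. Of the other genes low in AIR, BR was the lowest at 36.7% and the highest at 16.1%. JA was the highest at 23 members, or 17.3%, against 6.88% of all genes and 6.55% of the other genes low in AIR, and the lowest at 3 (all genes 7.21%). GA was the highest at 17 members, or 12.8%, against 6.25% of all genes and 8.65% of the other genes low in AIR. AgNO3 was the highest at 4 members, or 3.01%, against 9.17% of all genes and 17 of the other 809 genes low in AIR, and the lowest at 19, or 14.3%, against 8.28% and 14.7%. For AgNO3 the members were thus close to the other genes low in AIR. These shares rest on the 9 treatments only and describe the averages, without a test. They were looked at after the values were known.

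The rule also uses the H2O average, so the ratios of members to H2O are not independent of it. The same holds for the other 809 genes low in AIR, which had a median of 29.5 FPKM in H2O, and these are given for comparison. All treatments in solution share the H2O average. The count in each treatment is set beside the share of all genes of at least 1 FPKM in H2O.

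BR had the largest share of members at least 2-fold apart from H2O, as it had of all genes. The median log2 ratio of members in BR was only 0.01, since they went both ways. In BR, 22 members, or 16.5%, were at least 2-fold higher than in H2O and 24, or 18.0%, lower, where 7.19% of all genes were higher and 6.47% lower. At a pseudocount of 0.1 the split was 37 higher and 73 lower. Of the other genes low in AIR 5.69% were higher and 30.0% lower. LOC112181612, on NC_037088.1 from 38158709 to 38160314, was at 222 FPKM in BR and 36.2 in H2O, with 126 in JA, 18.1 in 1-MCP and 6.09 in AIR. LOC112198433, on NC_037091.1 from 61958498 to 61960320, was at 178 FPKM in BR and 42.6 in H2O, with 128 in GA. Besides LOC112181743, described above, LOC112196806, on NC_037091.1 from 27405464 to 27406604, was among the lowest, with 4.52 FPKM in BR and 37.7 in H2O. It lay at 23.2 in 1-MCP and 8.55 in AIR, and BR was the only treatment in solution with an average under that in AIR. The 22 members higher in BR had a median log2 ratio to H2O of 1.06 in GA, 0.85 in JA, 0.51 in SA and -0.54 in ABA. The 24 members lower in BR had medians of -0.51 in GA, -0.52 in JA, -0.57 in SA and 0.22 in ABA. All these ratios share the H2O average with the ratio to BR that chose the genes, so they are given side by side only.

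In ABA, 12 members (9.02%) were at least 2-fold higher and 17 (12.8%) lower than in H2O, where 2.72% of all genes were higher and 1.98% lower. The median log2 ratio of members was -0.39, against 0.03 for the other genes low in AIR and 0.02 for all genes. LOC112188617, on NC_037089.1 from 8600670 to 8693228, was at 308 FPKM in ABA and 1279 in H2O, and in AgNO3 it was at 444. In 1-MCP it was at 1203 and in AIR at 555, so ABA and AgNO3 gave lower averages than AIR. It shares its deposited locus with other identifiers, 5 in all. LOC112172259, on NC_037093.1 from 63453601 to 63458150, was at 14.7 FPKM in ABA and 37.2 in H2O, with 35.4 in 1-MCP and 13.7 in AIR. LOC112165541, on NC_037092.1 from 5767550 to 5768457, went the other way, with 339 FPKM in ABA and 107 in H2O, and 33.0 in 1-MCP and 13.8 in AIR. LOC112176750, which is under the 10 FPKM set for named genes and was singled out for its value, was at 137 FPKM in ABA and 7.49 in H2O.

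In GA, 18 members (13.5%) were at least 2-fold higher and 11 (8.27%) lower than in H2O, where 6.19% of all genes were higher and 3.60% lower. Without summing transcripts the balance turned to 19 higher and 29 lower. Of the other genes low in AIR 3.96% were higher and 16.7% lower. LOC112192986, on NC_037090.1 from 15159003 to 15159982, was at 178 FPKM in GA and 51.9 in H2O, and its other averages in solution lay between 25.6 in ABA and 88.3 in JA. LOC112179729, on NC_037094.1 from 63717582 to 63718727, was at 193 in GA and 92.5 in H2O. LOC112193250, on NC_037088.1 from 35243759 to 35544304, was at 17.3 FPKM in GA, 11.9 in SA and 44.3 in H2O, with 23.0 in 1-MCP and 7.44 in AIR. This position is a deposited locus that it shares with other identifiers, 8 in all.

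In JA, 13 members (9.77%) were at least 2-fold higher and 8 (6.02%) lower than in H2O, where 4.69% of all genes were higher and 2.65% lower. The balance of members did not hold across settings, with 31 higher and 34 lower at a pseudocount of 0.1 and 13 higher and 14 lower without summing transcripts. The other genes low in AIR were mostly on the other side, with 2.35% higher and 18.7% lower, and their median log2 ratio was -0.24, against 0.21 for the members. LOC112179310, on NC_037094.1 from 17901315 to 17903142, was at 495 FPKM in JA and 180 in H2O, with 54.8 in ABA, 172 in 1-MCP and 75.8 in AIR. LOC112166762, on NC_037092.1 from 33604850 to 33606509, was at 54.6 FPKM in JA and 14.7 in H2O, with 7.12 in ABA. LOC112196014, on NC_037091.1 from 4554218 to 4555747, was at 20.4 FPKM in JA and 56.0 in H2O, with 19.7 in 1-MCP and 4.62 in AIR. It was at 43.0 or more in every other treatment in solution.

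In SA, 7 members (5.26%) were at least 2-fold higher and 14 (10.5%) lower than in H2O. Of all genes 5.69% were higher and 3.25% lower, and of the other genes low in AIR 1.36% and 13.7%. In AgNO3, which like 1-MCP acts on ethylene perception, 4 members (3.01%) were at least 2-fold higher and 14 lower than in H2O, where 5.87% of all genes were higher and 3.31% lower. Of the other genes low in AIR 1.36% were higher in AgNO3 and 16.6% lower, where the share of members that were lower was 10.5%. With averages scaled to equal medians the split of members in AgNO3 was 2 higher and 16 lower. The median log2 ratio of AgNO3 over H2O was -0.23 for members, -0.30 for the other genes low in AIR and 0.04 for all genes. LOC112190255, on NC_037089.1 from 34765211 to 34769172, was at 276 FPKM in AgNO3 and 146 in H2O, with 27.4 in 1-MCP and 10.002 in AIR. LOC112188748, on NC_037089.1 from 3138534 to 3139453, was at 613 FPKM in AgNO3 and 1263 in H2O, with 1099 in 1-MCP and 379 in AIR. AgNO3 was given in solution and 1-MCP as a gas, and the form of treatment cannot be told apart from the compound.

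In the auxins and the cytokinin most members were near H2O, as were most of all genes, so this is no trait of the members. In NAA, 0 members were at least 2-fold higher and 3 (2.26%) lower than in H2O, where 1.41% of all genes were higher and 0.344% lower. In 2,4-D, 2 members were higher and 1 lower, where 1.48% of all genes were higher and 0.596% lower. In 6-BA, 3 members were higher and 2 lower, where 0.687% of all genes were higher and 0.496% lower. The median log2 ratio of members was -0.10 in NAA, 0.17 in 2,4-D and 0.04 in 6-BA. In all 9 treatments 50 members stayed within 2-fold of H2O, or 37.6%, against 49.8% of the other genes low in AIR and 76.6% of all genes.

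**Figure D4:**
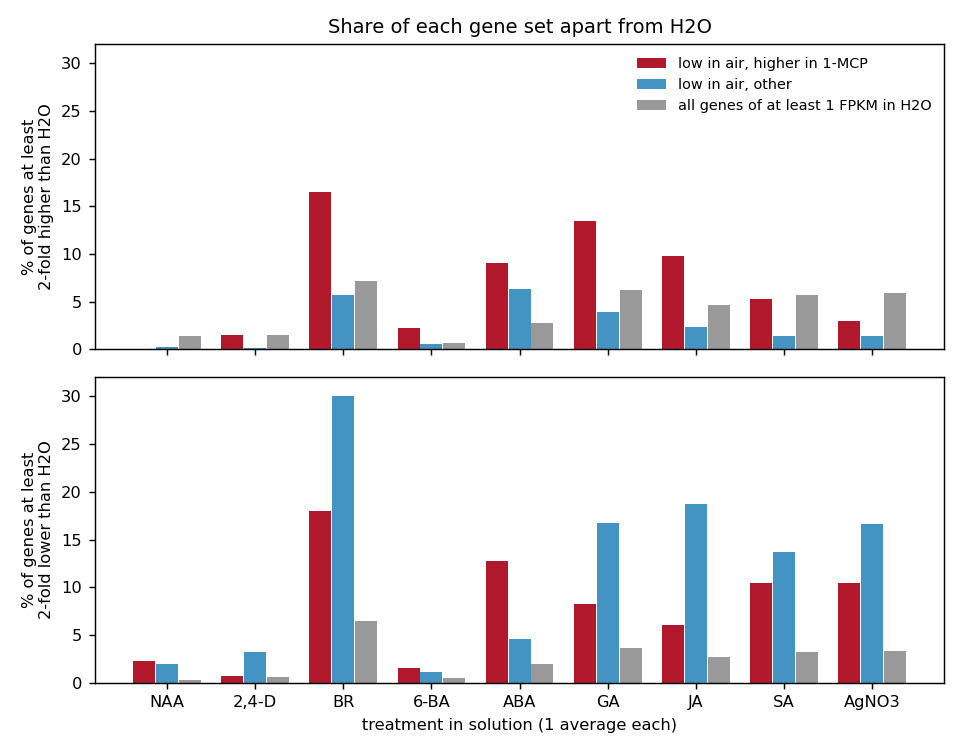
Bars give the percentage of genes at least 2-fold higher (top) or lower (bottom) than H2O in each of 9 treatments in solution, for the 133 members (red), the 809 other genes low in AIR (blue) and all 13094 genes of at least 1 FPKM in H2O (grey). The red bars exceed the blue ones among higher genes in every treatment but NAA, and among lower genes the blue bar is the taller in 2,4-D, BR, GA, JA, SA and AgNO3 and the red in NAA, 6-BA and ABA.

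The members were spread over all 7 chromosome sequences, from 11 on NC_037090.1 to 27 on NC_037089.1. Per gene of at least 1 FPKM in H2O this was from 0.59% on NC_037093.1 to 1.26% on NC_037092.1. Most members, 114, were alone at their deposited locus, 19 shared it with other identifiers, and 125 had 1 transcript. A few members were neighbours, and these were named for their position after their values were seen. LOC112180515, on NC_037094.1 from 20495219 to 20496149, was at 1158 FPKM in 1-MCP, 549 in AIR and 1498 in H2O, and LOC112179372, from 20500458 to 20501679, was at 81.8 in 1-MCP, 33.5 in AIR and 70.9 in H2O. No other identifier lay between them. LOC112164623 and LOC112164624, on NC_037092.1 from 10294726 to 10300468, were also next to each other, with 14.5 and 12.7 FPKM in 1-MCP, 4.39 and 2.25 in AIR, and 16.3 and 13.0 in H2O. LOC112172153 and LOC112172814 have the same deposited locus, on NC_037093.1 from 9701420 to 9718186, and the member LOC112172703 follows from 9733708 to 9734661. In BR these 3 genes were at 2.97, 1.10 and 1.81 FPKM, and in H2O at 22.1, 10.3 and 10.8. In ABA they were at 60.8, 35.1 and 12.8 FPKM. Whether reads of near-identical copies were shared among them was not examined.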

How the data were processed

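RNA of outer petals was sequenced by the authors in 13 conditions with 3 replicates each. Reads were mapped with TopHat2 2.1.1 to RchiOBHm-V2, transcripts were assembled and merged with Cufflinks 2.2.0 and Cuffmerge, and expression was computed with Cuffdiff. Each file deposited by the authors lists 38170 transcripts with 1 FPKM value, the average of a condition. The scaling of FPKM between conditions was not given in the sources used here. Doses and time follow the study's methods.

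Transcript FPKM were summed over each gene identifier, and ratios are log2 of FPKM plus a pseudocount of 1. The members, lists and comparisons were chosen with earlier results of these data known. Genes named were the first by level in H2O, by 1-MCP over AIR, by range over the treatments in solution and by ratio to their median, at 10 FPKM or more in H2O, and those nearest each limit. At most 2 per direction and treatment were printed, fewer than the rule gave, and exceptions are marked. The choice by pathway lists could not be applied. The working of the rule was checked on simulated averages with planted genes and an assumed noise. This says nothing about the real replicate error, which is unknown. No test across replicates was possible. Computation used pandas 2.3.3 and numpy 2.4.6 in Python 3.11.15, with scipy 1.17.1 for intervals and matplotlib 3.10.9 for plots.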

Additional observations from a re-analysis of the deposited data

How the results depend on the processing

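Dropping the minimum in H2O could not change the 133 members, since the limit for AIR over H2O already requires at least 1 FPKM there. There were 117 members at a minimum of 5 FPKM and 136 with averages scaled to equal medians. With that scaling, 132 of the 133 were also members. Under the minimum of 5 FPKM and the median scaling, all shares stayed within the 95% exact binomial interval of the value given. That interval treats members as independent and does not measure replicate error. The sets also share most of their genes, so the shares could move little. With a pseudocount of 0.1 there were 275 members, and the share apart from H2O was 8.0% in 2,4-D, 23.6% in JA and 24% in AgNO3. Without summing transcripts, 171 transcripts met the rule, with 9.36% apart from H2O in NAA, 24.6% in SA and 25.7% in AgNO3. At a log2 ratio of 0.5 there were 672 members, and the share apart from H2O was 18.8% in NAA, 22.5% in 2,4-D, 57.9% in BR, 15.3% in 6-BA, 43.5% in ABA, 46.6% in GA, 48.5% in JA, 43.6% in SA and 42.7% in AgNO3. The share apart over the 9 treatments was then 95.7%, the share still lower in 1-MCP than in H2O 40.0%, and the share with its lowest average in ABA 30.2%. The cause was not tested, but the lower limit admits smaller ratios by construction. Under the other settings the share lowest in ABA lay between 34.5% and 42.6% and the share highest in JA between 14.9% and 18.8%. These shares were looked at after seeing the data. The ratios of named members by the rule all stayed past 2-fold with the pseudocount of 0.1, which can only widen them. They also stayed past 2-fold with median scaling, which moved the averages little. These ratios chose the genes, so nothing is read from this. No paired analysis was possible because each file holds a mean over replicates, and leaving out replicates was not run for the same reason. Depth cannot be set against any value, since the files hold no counts.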
